A study of Homo sapiens with 4 samples.

Results

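Chromosome 19 carried the densest set of BRPF3 peaks in RKO cells. The peaks described here are those on that chromosome outside windows set over zinc-finger gene clusters. They were chosen by position: a peak was a member when its centre lay on chromosome 19 and outside 5 windows, at 11.5 to 12.8, 19.8 to 24.6, 36.0 to 38.5, 43.9 to 45.1 and 52.5 to 59.1 Mb. The chromosome itself was selected on its measured number of peaks per Mb, so its density is a description and carries no test. The rule found 1832 of the 38123 peaks in the series. Of these, 650 came from the 13431 peaks of HU cells, 532 from the 11532 of mimosine cells and 650 from the 13160 of asynchronous cells. Overlapping peaks of the 3 lists merged into 682 member regions, of 14039 in all, and no merged region joined a member to a peak inside a window.

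RKO is an established human colon carcinoma line, grown in DMEM with 10% FBS, and BRPF3 was mapped by chromatin immunoprecipitation and sequencing with a homemade rabbit antibody. HU cells had been held in 0.5 mM mimosine for 22 h, released for 3 h and given 3 mM hydroxyurea for 1 h 30 min, while mimosine cells had received the mimosine step and no other named agent. Asynchronous cells were untreated. Each condition had 1 library, and all 3 peak lists were called against 1 rabbit IgG library made from HU cells, so no difference between conditions has a replicate check and none is given a p-value. Read depth is unknown for these libraries.

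BRPF3 is a bromodomain and PHD-finger protein that holds together histone acetyltransferase complexes of the MYST family, among them the complex of HBO1, an enzyme that acetylates histones around replication origins and at active genes. Mimosine arrests cells near the start of DNA replication, and hydroxyurea lowers the supply of nucleotides and stalls replication forks. Chromosome 19 is the most gene-dense human chromosome, and large parts of it replicate early in S phase. Its zinc-finger clusters, rows of related genes for DNA-binding repressors that carry their own heterochromatin marks, were set apart here so that the other gene-rich stretches could be read by themselves. Genes and base sequences of the regions are not given, because the annotation and sequences at hand are of a different genome build from the peak lists.

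The members covered 1.96 Mb in HU, 1.10 Mb in mimosine and 1.77 Mb in asynchronous cells, out of 42.7 Mb between the windows. That is 4.59%, 2.57% and 4.15% of this length. On the other autosomes and chromosome X, measured from the first to the last peak of each, the peaks covered 1.42%, 0.802% and 1.27%. The density outside the windows was 15.2 peaks per Mb in HU, 12.5 in mimosine and 15.2 in asynchronous cells, and inside the windows it was 15.9, 12.8 and 15.9. The high density of the chromosome was therefore found on either side of the window edges. On the other chromosomes the values were 4.34, 3.74 and 4.25 peaks per Mb. Chromosome 17 came second to chromosome 19 in each list, with 10.1 peaks per Mb in HU, 8.88 in mimosine and 10.2 in asynchronous cells, and chromosome 22 followed with 9.45, 8.08 and 9.16.

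The members were spread very unevenly over the 5 segments that the windows leave. Segment 1, from 0 to 11.5 Mb, held 255 regions (22.2 per Mb). Segment 2, from 12.8 to 19.8 Mb, held 153 regions (21.9 per Mb), and segment 5, from 45.1 to 52.5 Mb, held 154 (20.8 per Mb). These 3 segments were nearly equal in density. Segment 4, from 38.5 to 43.9 Mb, held 77 regions (14.3 per Mb). Segment 3, from 24.6 to 36.0 Mb, which spans the centromere, held 43 regions, or 3.77 per Mb. Its peaks numbered 3.68 per Mb in HU, 3.07 in mimosine and 3.60 in asynchronous cells. Over its full length this was below the density of the other chromosomes in each list. That length includes 3.68 Mb around the centromere without a called peak. Mappable length was not measured for the segment or for the other chromosomes, so its density over mappable sequence is unknown. Mimosine cells had fewer peaks than both other lists in every segment.

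**Figure D1:**
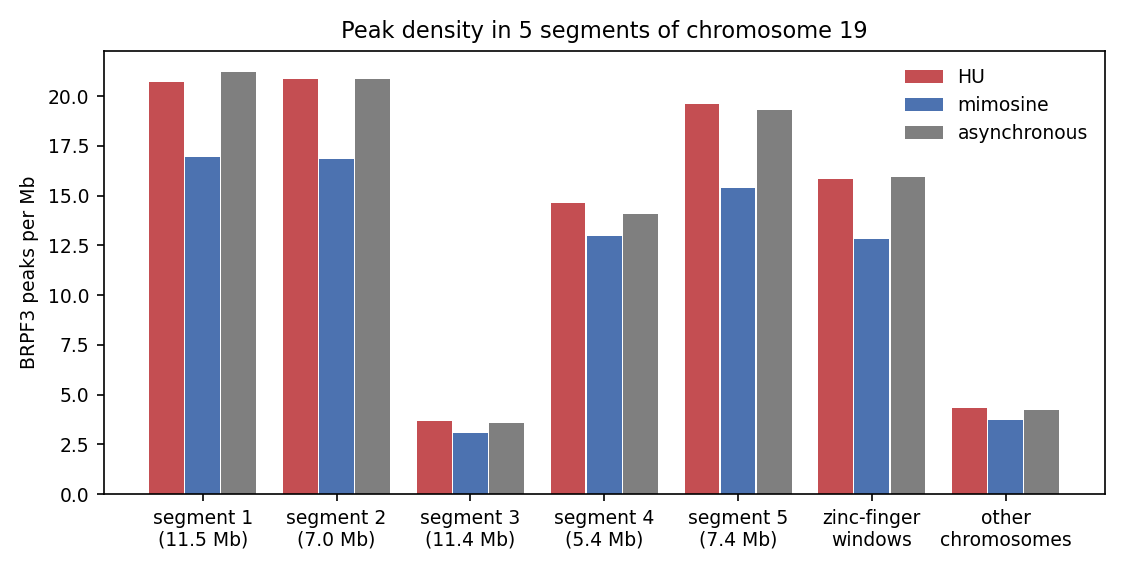
Peaks per Mb in the 5 segments of chromosome 19 between the zinc-finger windows, in the windows and on the other chromosomes. Bars give HU, mimosine and asynchronous cells, 1 library each, so there are no error bars. Segments 1, 2 and 5 reach 15.4 to 21.2 peaks per Mb, segment 3 stays between 3.07 and 3.68.

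Peaks were also unevenly spread over bins of 1 Mb. Of the 38 bins of 1 Mb that lay wholly outside the windows, the fullest was 1 to 2 Mb, near the short-arm end, with 40 regions and 40 HU, 35 mimosine and 39 asynchronous peaks. There, peaks covered 143 kb in HU, 91.5 kb in mimosine and 134 kb in asynchronous cells. The bin at 2 to 3 Mb followed with 32 regions and 28, 18 and 28 peaks in HU, mimosine and asynchronous cells. Other full bins were 49 to 50 Mb with 29 regions, 18 to 19 Mb with 28, and 3 to 4 and 10 to 11 Mb with 27 each. The median bin held 16.5 regions, and the 14 of 38 bins with over 20 regions held 366 regions. The 682 member regions also include those in bins cut by a window edge, which were not ranked here. At the other extreme, 4 bins held no peak in any list, all of them between 25 and 32 Mb. Mimosine cells had fewer peaks than both other conditions in 25 of the 38 bins and more than both in 2. HU cells had more peaks than asynchronous cells in 13 bins, fewer in 12 and the same number in 13. Peak counts thus showed no bias of HU cells to either side. Covered length did differ, at 1.96 Mb in HU against 1.77 Mb in asynchronous cells over all members.

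The longest stretches without a peak also lay in segment 3. No list held a peak in chr19:24600001-28282310, which runs from a window edge over 3.68 Mb around the centromere, where sequence is repetitive and reads are hard to place. The next, chr19:30435975-32835895, spans 2.40 Mb. The region between them was nearly as empty, since chr19:28286281-29702280 held no peak over 1.42 Mb. Outside segment 3 the longest were chr19:42928519-43900000, which ends at a window edge after 0.971 Mb, and chr19:13279348-13841315, which spans 0.562 Mb. An absent peak here says only that none was called, since reads in these stretches were not analysed here.

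Neighbouring members stood close together. The chromosome was chosen for its density, which fixes short distances in advance, so distances and runs here are a description. Median distances between adjacent peaks of a list were 25.9 kb in HU cells (95% interval 22.7 to 29.0 kb), 32.9 kb in mimosine cells (28.4 to 37.2 kb) and 26.2 kb in asynchronous cells (23.2 to 29.0 kb). The rest of the series had 61.8, 66.3 and 63.5 kb. Of the member regions, 175 (25.7%, 95% interval 22.4 to 29.1%) lay in runs with gaps under 5 kb, against 19.3% in the rest of the series and 26.2% (23.3 to 29.3%) on chromosome 17, the next in density. The longest runs held 6 regions each. In chr19:1235530-1277438 the run spanned 41.9 kb with 7 HU, 7 mimosine and 6 asynchronous peaks, and 5 of its 6 regions were in all 3 lists. In chr19:3967736-3990538 it spanned 22.8 kb with 3 HU, 2 mimosine and 5 asynchronous peaks, and 3 of its 6 regions were called in asynchronous cells alone. These 2 runs thus differed in how far the lists shared them, and the single-list regions of the second were weak. Its 3 asynchronous peaks of this kind had deposited scores of 103, 51.8 and 66.9, and its single HU peak 63.6. The lowest score in each of these lists was 50.

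The 9 members nearest to a window edge lay 7.37 kb to 3684 kb from it, with a median of 47.2 kb, and the 10 nearest regions inside a window lay 0.941 to 330 kb from it. The members within 10 kb of an edge stood at 12.8 Mb, where chr19:12805910-12808833 was a member in all 3 lists and chr19:12791093-12793667, in HU and asynchronous cells, fell inside, and at 11.5 Mb, where the member chr19:11490733-11493295 was in HU and asynchronous cells and chr19:11528751-11530404 inside was in all 3 lists. Region widths were 2209 to 4149 bp outside and 1053 to 5285 bp inside, so regions on either side of the edges overlapped in width.

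Nearly every mimosine member lay on a site of the other conditions. Among the 532 mimosine peaks, 3 had no HU peak (0.564%, exact Clopper-Pearson 95% interval 0.116 to 1.64%), against 0.468% over the whole series, and 5 had no asynchronous peak (0.940%, 0.306 to 2.18%), against 1.14%. In the other direction, 177 of 650 HU peaks had no mimosine peak (27.2%, 23.8 to 30.8%), against 24.6% over the series, and 172 of 650 asynchronous peaks had none (26.5%, 23.1 to 30.03%), against 22.6%. HU and asynchronous cells differed at fewer sites. Of the HU peaks, 52 lacked an asynchronous peak (8.0%, 6.03 to 10.4%; series 8.82%), and of the asynchronous peaks 40 lacked an HU peak (6.15%, 4.43 to 8.29%; series 5.46%). The shares lacking a mimosine peak were above the series values. The interval for HU peaks held the series value, and that for asynchronous peaks did not. These intervals cover counting error alone, and neighbouring peaks are not independent.

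Merged regions gave the same picture by class. Of the 682 member regions, 468 held a peak in all 3 lists (68.6%, 95% interval 65.0 to 72.1%), against 71.5% of regions in the series. Another 120 were in HU and asynchronous cells and not in mimosine cells (17.6%, 14.8 to 20.7%; series 14.7%). HU cells alone held 50 (7.33%; series 8.08%), and asynchronous cells alone held 39 (5.72%; series 4.97%). The remaining classes were nearly empty, with 2 regions in HU and mimosine cells (series 0.349%), 2 in mimosine cells alone (series 0.242%) and 1 in mimosine and asynchronous cells (series 0.142%). The share in all 3 lists ran from 63.0% (54.8 to 70.6%) in segment 5 to 76.7% (61.4 to 88.2%) in segment 3, and those intervals overlapped. The class missing from mimosine cells was the fuller one relative to the series, and the lower bound of its interval lay just above the series value. Inside the windows this class had a like share, at 17.2% of 273 regions (12.9 to 22.2%), so it was not particular to the members.

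**Figure D2:**
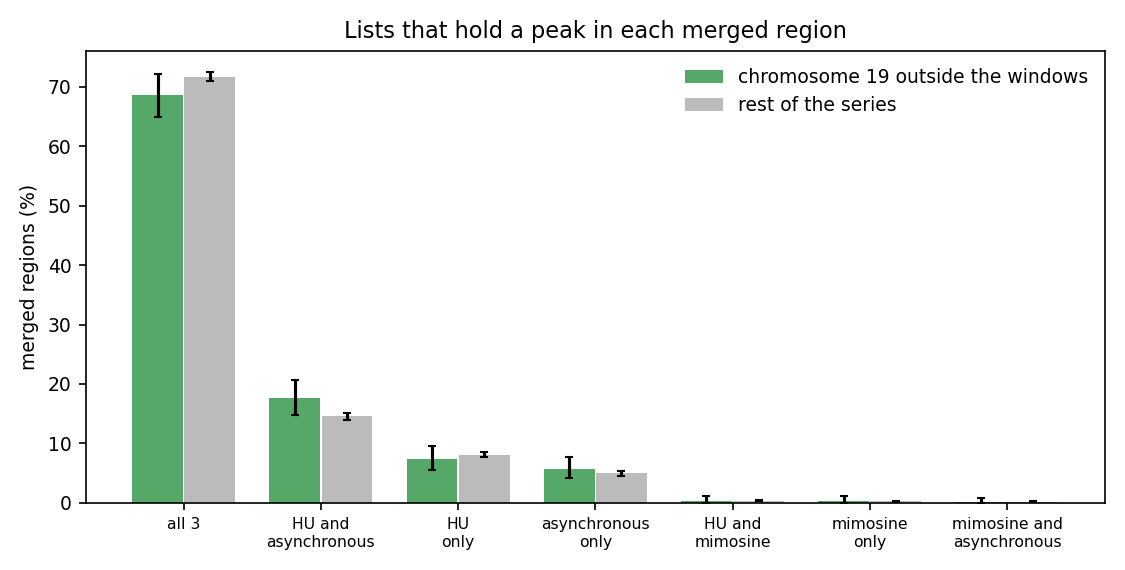
Share of merged regions, in percent, by the lists that hold a peak in them, for the 682 regions of chromosome 19 outside the windows and for the 13357 other regions. Whiskers are exact 95% intervals of counting error, from 1 library per condition. Regions in all 3 lists make up 68.6% of members, and those missing from mimosine cells 17.6%.

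The score of a peak, a value given by the authors, was used to rank peaks within a list. A rank percentile is the rank, counted from the lowest score, as a percentage of the whole list. Tied peaks, such as those at the ceiling, share their mean rank. Members sat at a median percentile of 44.9 in HU, 51.9 in mimosine and 42.2 in asynchronous cells. The lowest 20% of each list held 23.7% of HU members, 101 of 532 mimosine members and 25.5% of asynchronous members, and the highest 20% held 19.2%, 22.2% and 17.8%. Scores at or above the ceiling of 3100, where the order is not resolved, were carried by 52 HU, 21 mimosine and 48 asynchronous members (8.0%, 3.95% and 7.38%). In the rest of the series those shares were 7.21%, 2.86% and 7.45%. The members thus leaned to the weak end of the HU and asynchronous lists and not of the mimosine list, while the share at the ceiling was close to that of other peaks in asynchronous cells and above it in the other conditions.

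Members without a mimosine peak were weak and narrow. The HU ones had a median rank percentile of 12.4 and a median width of 1498 bp, against 61.1 and 3143 bp for HU members with a mimosine peak. The asynchronous ones stood at 11.4 and 1276 bp, against 56.7 and 2849.5 bp. Among the higher-scoring 50% of each list, 0 of 291 HU members and 0 of 274 asynchronous members lacked a mimosine peak, which allows shares of up to 1.03% and 1.09%. Other peaks of such scores nearly all had one too. In the sixth of 10 score groups 6 of 1295 other HU peaks and 12 of 1266 other asynchronous peaks lacked it. No higher group held more than 5, so the members did not stand apart here. The step from absence to presence was steep. In the lowest of 10 score groups 2 of 74 HU members (2.70%) and 4 of 77 asynchronous members (5.19%) had a mimosine peak, in the third group 59.7% and 67.9% did, and in the fifth 98.5% and 98.6%.

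The shares were also set beside those of other peaks in the same score group. In the lowest group they were 2.70% of HU members against 4.96% of other HU peaks, and 5.19% of asynchronous members (1.43 to 12.8%) against 8.56% of other asynchronous peaks (7.06 to 10.3%). In the third group 67.9% of asynchronous members (56.6 to 77.8%) had a mimosine peak, against 60.2% of other peaks (57.4 to 62.9%), and in the fourth group it was 91.2% (80.7 to 97.1%) against 86.0% (84.0 to 87.9%). Among HU peaks the third group gave 59.7% (47.0 to 71.5%) against 51.5% (48.7 to 54.2%). All of these intervals overlapped between members and other peaks. If every score group had lacked mimosine peaks at the rate of the other regions, 184 HU members and 182 asynchronous members would have lacked one, where 177 and 172 did. Counted this way, the members were not short of mimosine peaks relative to peaks of like score.

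**Figure D3:**
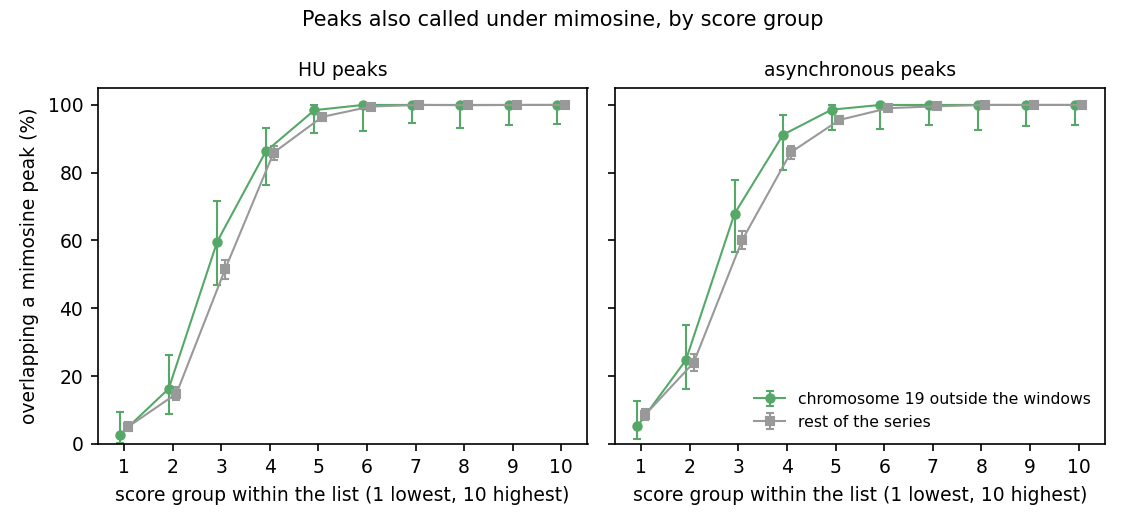
Percentage of HU peaks (left) and asynchronous peaks (right) that overlap a mimosine peak by at least 1 bp, in 10 groups by score within the whole list. Circles are chromosome 19 outside the windows and squares the rest of the series, with exact 95% intervals of counting error; both rise from under 10% in the lowest group to 100% in the highest.

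The leading regions without a mimosine peak stood in the middle of the score range. First was chr19:2866441-2868958, with an HU peak of 1706 bp and score 396 (percentile 41.8) and an asynchronous peak of 2518 bp and score 502 (46.9). The next, chr19:2943706-2946116, lay in the same 1 Mb bin, with 2411 bp and score 324 in HU and 2087 bp and score 353 in asynchronous cells. The third, chr19:45908482-45912948, was wider in HU cells, at 4467 bp against 3128 bp in asynchronous cells, with scores of 316 and 310. Among regions of HU cells alone, chr19:2188430-2190830 led with 2401 bp and a score of 199 (percentile 26.2 of the HU list), and chr19:46498028-46499832 came next with a score of 134. Asynchronous cells alone led with chr19:51059273-51060472, 1200 bp and a score of 212 (percentile 25.9 of the asynchronous list). No region of HU or of asynchronous cells alone ranked above these leaders, so single-list sites were weak in the list that held them. The 2 regions of mimosine cells alone, chr19:5975691-5976125 and chr19:50490319-50490747, were 435 and 429 bp wide with scores of 60.7 and 55.8.

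Peaks of the same site were narrowest in mimosine cells. In the 402 member regions with exactly 1 peak per list (58.9% of member regions), the median width was 2980.5 bp in HU (interquartile range 2352.5 to 3916 bp), 1800.5 bp in mimosine (1297 to 2666 bp) and 2688.5 bp in asynchronous cells (2085 to 3503 bp). The HU peak was wider than the mimosine peak in 402 of 402 regions, with a median ratio of 1.59 (95% interval of the median 1.55 to 1.63). The mimosine peak was narrower than the asynchronous one in 393 of 402 (97.8%, 95.8 to 99.0%), at a median ratio of 0.685 (0.667 to 0.723). HU peaks exceeded asynchronous peaks in 296 of 402 (73.6%, 69.0 to 77.9%), at 1.08 (1.06 to 1.10). In the rest of the series the shares of these directions were close to those of the members, at 99.9%, 98.2% and 75.1%. The ratios there were 1.59, 0.694 and 1.09, each inside the interval of the members.

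Mimosine peaks mostly sat inside their partners. The mimosine peak lay wholly within the HU peak in 392 regions (97.5%). Of the mimosine and asynchronous peaks, the narrower lay within the wider in 350 (87.1%), while of the HU and asynchronous peaks it did so in 187 (46.5%). In the rest of the series the narrower peak lay within the wider in 98.4%, 89.9% and 50.1% for the same pairs. Nesting was thus no more frequent among members. The left edges of mimosine and asynchronous peaks were a median of 379 bp and their right edges 333 bp apart, so both edges differed by like amounts. Peak centres of mimosine and asynchronous cells were a median of 146 bp apart. The narrowing was graded by score: over 4 groups of asynchronous rank, from lowest to highest, the median mimosine to asynchronous ratio of members was 0.583, 0.650, 0.758 and 0.802, and that of other regions 0.586, 0.656, 0.720 and 0.780. In the lowest group the members' widths had medians of 2254 bp in HU, 1160 bp in mimosine and 2014 bp in asynchronous cells, in the highest group 4440, 3249 and 4107 bp.

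**Figure D4:**
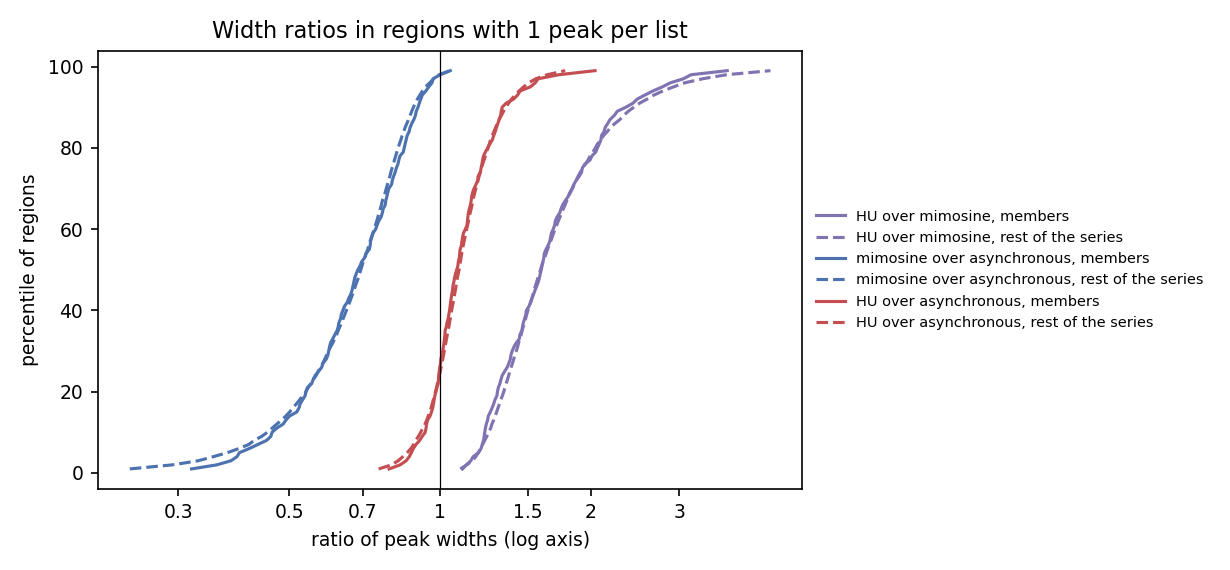
Cumulative distribution of width ratios between peaks of the same site, on a log axis, in regions with 1 peak per list; solid lines are the 402 members, dashed lines the 8251 other regions. The medians of the members are 1.59 for HU over mimosine, 0.685 for mimosine over asynchronous and 1.08 for HU over asynchronous, and solid and dashed lines run close together.

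The extremes of width were counted against the series. The mimosine peak was under 0.5 times the asynchronous width in 57 members (14.2%, 10.9 to 18.0%; series 14.9%), the HU peak was over 1.5 times the asynchronous width in 21 (5.22%; series 4.14%), and the HU peak was over 2 times the mimosine width in 92 (22.9%, 18.9 to 27.3%; series 21.7%). These shares were near the background. Of the most narrowed sites, chr19:12847314-12850505 had a peak of 2738 bp in HU, 593 bp in mimosine and 2417 bp in asynchronous cells. At chr19:10678611-10680987 the widths were 2375, 559 and 2222 bp. The opposite pattern, a mimosine peak wider than the asynchronous one, was found in 9 regions and was largest at chr19:18261964-18265833, with 3870 bp in HU, 3238 bp in mimosine and 2030 bp in asynchronous cells.

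Some members were wide in HU cells alone. At chr19:3759069-3763908 the HU peak spanned 4840 bp, against 1606 bp in mimosine and 1753 bp in asynchronous cells, the largest HU to asynchronous ratio among members at 2.76. The next, chr19:18496528-18499973, had 3446 bp in HU, 392 bp in mimosine and 1332 bp in asynchronous cells, with scores of 874, 68.0 and 145. Its rank percentile was 64.7 in the HU list, 10.1 in the mimosine list and 18.8 in the asynchronous list, so this site stood near the weak end of the mimosine and asynchronous lists and above the middle of the HU list. A like pattern was seen at chr19:13960820-13965007, with 4188, 937 and 1745 bp and rank percentiles of 47.9, 9.07 and 18.3 in HU, mimosine and asynchronous cells. With 1 library per condition these single sites have no measure of spread.

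Wide members were few and mostly shared. Peaks over 10 kb numbered 3 in HU, 1 in mimosine and 2 in asynchronous cells (0.462%, 0.188% and 0.308% of members), below the 1.17%, 0.255% and 0.895% of other peaks. The widest region, chr19:51194991-51209907, was 14.9 kb long and held 1 peak per list, of 13920 bp in HU, 12920 bp in mimosine and 14420 bp in asynchronous cells, all at the score ceiling. It kept 0.896 of the asynchronous width under mimosine. Its neighbour chr19:51219283-51230543 was covered by 10669 bp of peaks in HU, 8139 bp in mimosine and 11103 bp in asynchronous cells, with best scores of 780, 1908 and 3100. There the HU list gave the lowest rank, at percentile 61.3 against 92.6 in mimosine and 96.3 in asynchronous cells. The region chr19:41723885-41733969 also held 1 peak per list at the ceiling, of 9655, 8332 and 9494 bp. In all, 21 regions reached the ceiling in all 3 lists, and the 16 of them with 1 peak per list kept a median of 0.835 of their asynchronous width under mimosine.

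Splitting of a site into several peaks was mostly a feature of the mimosine list. Of the 468 regions in all 3 lists, 9 held more than 1 HU peak (1.92%, 0.883 to 3.62%; series 1.15%), 54 more than 1 mimosine peak (11.5%, 8.79 to 14.8%; series 11.9%) and 19 more than 1 asynchronous peak (4.06%, 2.46 to 6.27%; series 2.81%). The median share of region length under peaks was 99.5% in HU, 61.3% in mimosine and 90.9% in asynchronous cells. The most split region was chr19:45970200-45983261, where a single HU peak of 13062 bp faced 4 mimosine peaks, which together covered 8213 bp, and 2 asynchronous peaks, which covered 9621 bp. At chr19:17184184-17191537 the HU peak spanned 7354 bp at the ceiling, and 3 mimosine peaks covered 5509 bp of the site and a single asynchronous peak 7069 bp.

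The members differed from the other regions in the order of scores between conditions. To compare the same sites, ranks were taken within the 8653 regions of the series that hold exactly 1 peak per list. Members had median ranks of 46.8 in HU, 48.8 in mimosine and 42.0 in asynchronous cells, where 50 is the middle of the series. The mimosine rank was above the asynchronous rank in 262 of 402 members (65.2%, 60.3 to 69.8%), against 50.2% of the other regions (49.1 to 51.2%), with a median shift of 3.04 rank points against 0.0462. The HU rank was above the mimosine rank in 151 of 402 (37.6%, 32.8 to 42.5%), against 48.6% (47.6 to 49.7%), with a median shift of -2.59 against -0.243. The HU rank was above the asynchronous rank in 214 (53.2%, 48.2 to 58.2%), against 44.8% (43.8 to 45.9%). By these ranks members as a set, though not in every segment, stood relatively higher in mimosine cells than in either other condition. With ranks taken in the whole lists instead, the mimosine rank was above the asynchronous rank in 43.0% of members, under 50%, against 30.6% of other regions, so the side of 50% depended on the ranking, and members stayed above other regions under both.

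Large changes of rank showed the same side. The mimosine rank was above the asynchronous one by over 10 points in 111 members (27.6%; series 18.6%) and below it by over 10 in 39 (9.70%; series 18.9%). For HU against mimosine, 35 members were higher by over 10 points (8.71%; series 14.6%) and 67 lower (16.7%; series 14.4%). For HU against asynchronous cells, 77 were higher (19.2%; series 15.8%) and 47 lower (11.7%; series 16.0%). Since members ranked low in asynchronous cells, the shares were also taken at like asynchronous rank. In the 4 groups of asynchronous rank, from lowest to highest, the mimosine rank was above in 65.6%, 64.4%, 71.1% and 60.2% of members, and in 63.6%, 49.8%, 44.2% and 43.2% of other regions. Members and other regions gave nearly equal shares in the lowest group and differed in the groups above it.

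The shift was seen in most segments and also elsewhere in the series. The mimosine rank was above the asynchronous rank in 69.9% of 153 regions in segment 1 (62.0 to 77.1%), 64.6% of 99 in segment 2 (54.4 to 74.0%) and 67.1% of 79 in segment 5 (55.6 to 77.3%). It was 62.5% of 40 in segment 4 (45.8 to 77.3%) and 13 of 31 (41.9%, 24.5 to 60.9%) in segment 3, and both of those intervals held 50%. Inside the zinc-finger windows it was 62.6% of 171 (54.9 to 69.8%). In the whole series, chromosomes 21, 22 and 20 also had high shares, at 66.7% of 78, 63.0% of 227 and 59.5% of 257 regions. Chromosomes 13 and 6 had 36.9% of 160 and 39.2% of 434, and chromosome 17, second in density, had 54.6% of 546. This share thus differed widely among chromosomes, and chromosome 19 as a whole, at 64.4% of 573, was second in this order. The HU rank was above the mimosine rank in 31.4% of segment 1 (24.1 to 39.4%), 32.3% of segment 2 (23.3 to 42.5%), 41.9% of segment 3 (24.5 to 60.9%), 52.5% of segment 4 (36.1 to 68.5%) and 46.8% of segment 5 (35.5 to 58.4%). The interval of segment 4 overlapped those of segments 1 and 2. Those of segments 3, 4 and 5 held the 48.6% of other regions, and those of segments 1 and 2 lay below it. Inside the windows the HU rank was above the mimosine rank in 48.5% of 171 (40.8 to 56.3%). By chromosome this share ran from 40.3% on chromosome 16 to 55.1% on chromosome 6, with 40.8% on chromosome 19 and 44.1% on chromosome 17. Read depth, fragment length and base composition were not analysed here, and their part in these rank differences was not tested.

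**Figure D5:**
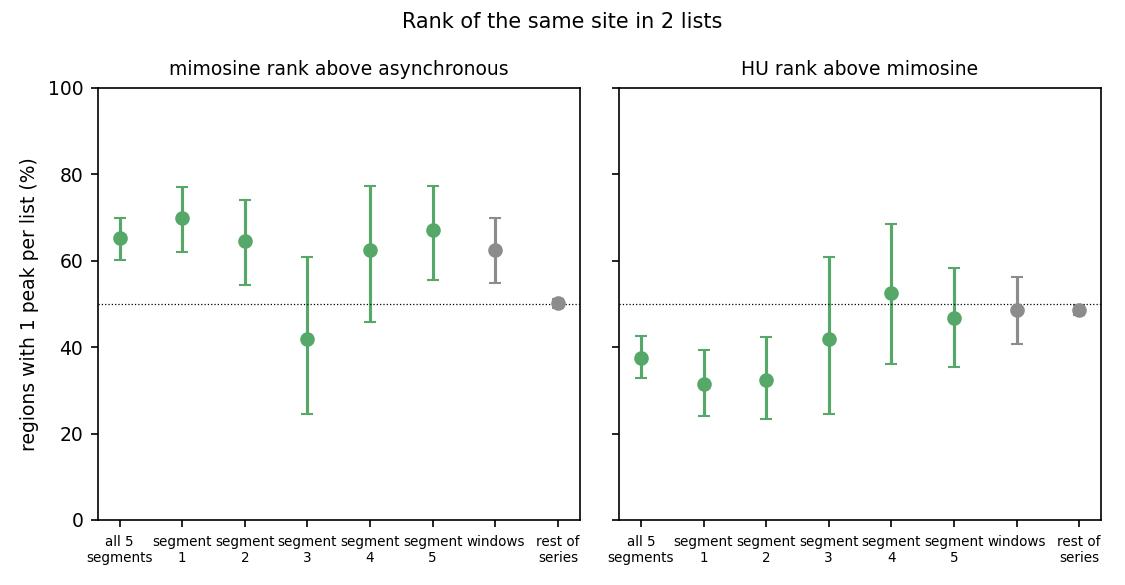
Percentage of regions with 1 peak per list in which the mimosine rank is above the asynchronous rank (left) and the HU rank above the mimosine rank (right), for all members, each of the 5 segments, the zinc-finger windows and the rest of the series. Whiskers are exact 95% intervals of counting error and the dotted line marks 50%; members stand at 65.2% on the left and 37.6% on the right.

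The single sites behind this order spread over the chromosome. The largest rise of mimosine over asynchronous rank was at chr19:42771912-42776493, with ranks of 55.9 in HU, 68.9 in mimosine and 17.5 in asynchronous cells and peak scores of 878, 583 and 318. At chr19:6529941-6533447 the ranks were 73.2, 63.5 and 22.2 and the scores 1385, 492 and 373 in HU, mimosine and asynchronous cells. At both sites HU and mimosine cells ranked above the middle of the series and asynchronous cells below it. At chr19:45945643-45948918 only the mimosine list ranked the site near the middle, with 8.67, 41.3 and 3.39. The opposite change was led by chr19:33181647-33185662 in segment 3, with ranks of 49.6 in HU, 49.8 in mimosine and 76.0 in asynchronous cells, and also seen at chr19:33863707-33868027, with 56.8, 60.9 and 84.9. In both, asynchronous cells gave the highest rank and the mimosine peak was under 0.5 times the asynchronous width, at 1758 bp against 3518 bp and 1892 bp against 4141 bp.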

How the data were processed

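BRPF3 ChIP-seq peak lists of 3 RKO libraries were analysed, 1 per condition. Per the submitters' processing notes, the tools behind the lists included MACS 1.4.0, Bowtie 0.12.8, bedtools and SAMtools, with no order or settings given. The deposited score of a peak has the form of 10 times the negative base-10 logarithm of a p-value, with a lowest value of 50, and the files name no unit for it. The notes name hg18 and hg19. Peaks reach past chromosome ends of hg18 and GRCh38, so positions are hg19, counted from 1. The antibody field names BRPF3, although a description field names other BRPF proteins. The antibody field was followed.

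Peaks shared a site when they overlapped by at least 1 bp. Scores above 3100 were set to 3100 before ranking. Shares have exact Clopper-Pearson 95% intervals, and medians have exact binomial intervals by order statistics. All cover counting error only. Where 0 members were found, the limit is 3 counts of the total. The overlap, merging and width code was tested on lists with known answers. These were made from the asynchronous list by copying it and by dropping and trimming peaks. Computations ran in SciPy 1.17.1, NumPy 2.4.6 and pandas 2.3.3 under Python 3.11.15, with figures from matplotlib 3.10.9. Regions named for score, width, number of peaks, bins and gaps follow a rule of 5 per list, class or extreme, of which a part is printed. Those named for rank changes were chosen after their values were seen, as were the segments. The members and rules were chosen with earlier results of these data known. Promoters, genes and sequences were not analysed here.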

Additional observations from a re-analysis of the deposited data

How the results depend on the processing

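Of 85 results recomputed under an alternative, 61 stayed within their interval (counts within 1.5 times), 22 moved beyond it and 2 turned round. Overlaps are given as HU with mimosine, HU with asynchronous, mimosine with HU, mimosine with asynchronous, asynchronous with HU and asynchronous with mimosine. A reciprocal overlap of 50% lowered these from 72.8%, 92.0%, 99.4%, 99.1%, 93.8% and 73.5% to 52.2%, 89.5%, 63.7%, 72.9%, 89.5% and 59.7%; pairs of very unequal width fail it by construction. At a score of 100 or more, mimosine peaks overlapped HU and asynchronous peaks in 100% each, and 0 regions were left in HU and mimosine, in mimosine and asynchronous, or in mimosine cells alone. Fewer peaks also widened the median distances to 31.8 kb in HU, 39.5 kb in mimosine and 33.0 kb in asynchronous cells, and sites with several peaks fell to 0.761%, 7.36% and 2.03%. Without peaks wider than 10 kb, 98.3% of mimosine peaks overlapped an HU peak, 3 regions were in mimosine and asynchronous cells and 4 in mimosine cells alone. Members at least 250 kb from a window left 1 region in HU and mimosine cells, and joining peaks within 1 kb left 1 in mimosine cells alone. The rank alternatives were added after seeing the data. With ranks taken in the whole list, the mimosine rank was above the asynchronous rank in 43.0% of members (30.6% of other regions) and the HU rank below the mimosine rank in 30.3% (24.8%), so both turned round relative to 50%; the cause was not tested. At a score of 100 or more the first was 66.4% of members (50.1% of other regions), and without sites at the ceiling 63.7% (49.6%). No paired analysis was possible because each condition had 1 library. Unknown read depth limits what an absent peak means.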
